A study of Mus musculus with 2 samples.

Results

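The expression of 10 germline and meiosis genes was examined in cultures of 46C, a line of mouse embryonic stem cells with GFP knocked into the Sox1 locus: Dazl, Sycp1, Sycp3, Syce1, Mael, Stk31, Tdrd1, Asz1, Slc25a31 and Taf7l. They were looked up by gene symbol in an RNA sequencing table of 14398 genes. The table holds 9 of the 10, and Asz1 has no row in it. The genes were chosen by their normalized values in these same libraries, as earlier results gave them, so the values below are a description without a test. The control culture was transfected with the empty vector (PB) and the other with a vector for ID2 (PB-ID2). Otherwise the labels describe both cultures alike: serum medium with leukemia inhibitory factor, gelatin-coated plates, passages 21 to 24, and an origin in the inner cell mass. They give neither the promoter that drives ID2 nor whether the cells were a clone or a pool. Each group has 1 library, so no difference has an error between replicates, and "higher" and "lower" mean the ID2 library against the control library. Id2 stood at 324 (control) and 26225 (ID2), the direction the labels give.

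Germ cells are the only cells that enter meiosis, in which paired homologous chromosomes are held by the synaptonemal complex, a ladder of SYCP and SYCE proteins. Male germ cells also make piRNAs, small RNAs that guide PIWI proteins against transposons, and several Tudor-domain proteins assemble this machinery in perinuclear granules called nuage. In mouse embryonic stem cells many such genes are held down by DNA methylation, by methylation of histone H3 at lysine 9, and by a variant Polycomb complex that contains PCGF6, L3MBTL2, E2F6, MGA and MAX. MGA and MAX bind as a pair to the E-box CACGTG, and E2F6 binds sites such as GGCGGGA. ID2 itself does not bind DNA and pairs with E proteins, whose own binding sites are E-boxes of the form CANNTG.

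The promoters of these genes are shown because the members share features there that their choice did not use. RefSeq sequences for GRCm38.p6 matched all 10 genes with 13 start sites; the expression table was made on mm9, so these coordinates belong to the sequences alone. In the window from 250 bases before to 50 after the start, CACGTG was found at the first listed start of 7 of 10 genes, beside 7.15% of all 32851 windows. Of the 9746 windows whose ratio of observed to expected CpG lay in the members' own range, 11.1% held it. Both strands were searched, and CACGTG reads alike on both. The 8 sites of these 7 genes follow, each with 10 bases on either side, in the direction of transcription and with CACGTG in capitals.
Sycp1: gagaacccggCACGTGggaagggaaa
Sycp3, farther site: cgttggctccCACGTGagaacgggca
Sycp3, nearer site: gggcatggagCACGTGctaggaggcg
Mael: ccaggcctacCACGTGacaatccccg
Stk31: gccggccaccCACGTGaccagggctg
Tdrd1: gggctgcgcgCACGTGggagtaaact
Slc25a31: caactggaaaCACGTGttatggtcac
Taf7l: cctcttatacCACGTGacagaactcg

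Counted from the start site, with -1 the last base before it, the sites began at -223 in Mael, -94 in Sycp1, -93 in Slc25a31, -64 and -43 in Sycp3, -55 in Stk31, -49 in Taf7l and -11 in Tdrd1. In Mael, Stk31, Taf7l and the farther Sycp3 site the E-box stood in the same octamer, CCACGTGA. Sycp1 and Tdrd1 shared another octamer, GCACGTGG, and the flanks of the remaining sites differed from these. How often these octamers occur over all windows was not counted. The windows of Dazl, Syce1 and Asz1 held no CACGTG. The E2F-type letters GGCGGGA were found, on either strand, in 2 of the 10 first windows (Mael and Slc25a31). They were in 11.3% of all windows and in 25.1% of those in the members' CpG ratio range. The general form CANNTG was in 9 of the 10, beside 72.3% of all windows and 59.8% of those in that CpG range. Asz1 was the exception. CANNTG includes CACGTG, so the 7 genes with CACGTG match it already. Of its other forms, CAGCTG was in 2 of the 10 (16.3% of all windows) and CAGGTG in 4 (20.2%). A match is a run of letters and not a measured binding site.

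**Figure D1:**
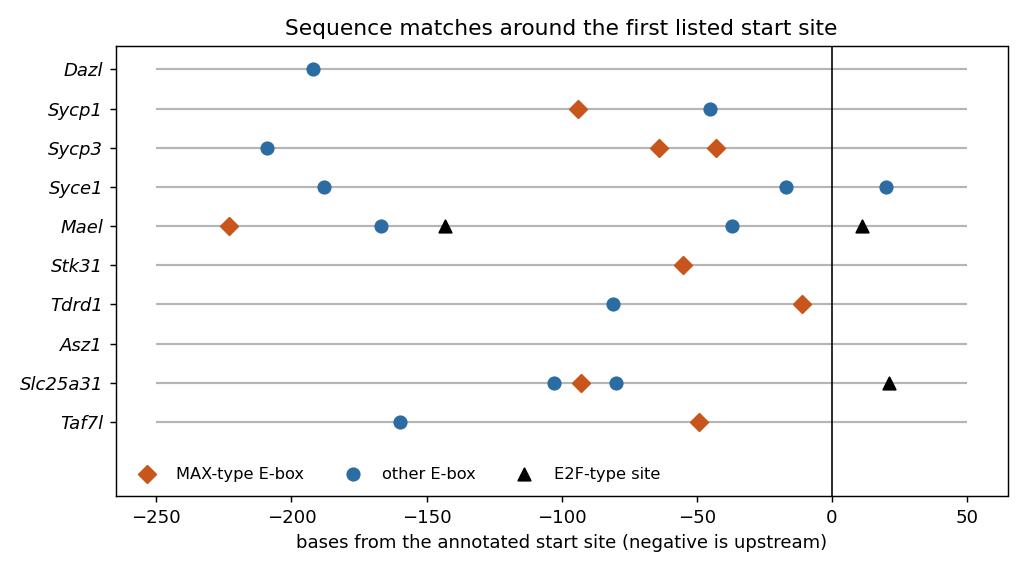
Position of sequence matches in the window from 250 bases before to 50 bases after the first listed start site of each of the 10 genes. Orange diamonds mark the E-box that MGA and MAX bind, blue circles other E-boxes and black triangles E2F-type sites. The diamonds stand in 7 genes, all upstream of the start.

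The upstream stretches of 4 genes are given in full, from -250 to -21. Taf7l had the lowest ratio and Mael the largest difference in value, Sycp3 has a pair of CACGTG sites, and Dazl has no CACGTG. They lie at chrX:134476511-134476740 (minus strand), chr1:166238765-166238994 (minus), chr10:88459337-88459566 (plus) and chr17:50293641-50293870 (minus) of GRCm38.p6, and each ends 20 bases short of the start site. Capitals mark CACGTG.
Taf7l: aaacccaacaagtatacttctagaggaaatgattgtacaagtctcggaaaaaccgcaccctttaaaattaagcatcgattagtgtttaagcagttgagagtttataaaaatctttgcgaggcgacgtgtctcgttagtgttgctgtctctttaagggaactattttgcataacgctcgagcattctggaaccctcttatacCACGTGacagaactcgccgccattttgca
Mael: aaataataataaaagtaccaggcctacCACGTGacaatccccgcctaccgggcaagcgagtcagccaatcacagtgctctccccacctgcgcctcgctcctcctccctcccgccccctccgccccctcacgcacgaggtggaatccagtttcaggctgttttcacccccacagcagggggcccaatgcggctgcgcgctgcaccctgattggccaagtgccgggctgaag
Sycp3: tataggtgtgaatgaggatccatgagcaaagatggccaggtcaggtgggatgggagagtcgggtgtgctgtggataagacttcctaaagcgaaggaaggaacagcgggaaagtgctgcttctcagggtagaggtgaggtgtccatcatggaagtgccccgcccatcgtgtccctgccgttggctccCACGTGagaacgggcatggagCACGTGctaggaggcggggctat
Dazl: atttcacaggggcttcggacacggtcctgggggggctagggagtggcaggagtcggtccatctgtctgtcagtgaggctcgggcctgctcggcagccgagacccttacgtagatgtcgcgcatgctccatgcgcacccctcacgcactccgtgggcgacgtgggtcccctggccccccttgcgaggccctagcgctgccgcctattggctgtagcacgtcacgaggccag

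All 10 promoters were rich in CpG, the dinucleotide at which DNA is methylated. The 10 windows held 14 to 29 CpG (median 20.5), beside a median of 7 over all windows. Their observed to expected ratio ran from 0.625 in Syce1 to 1.03 in Taf7l, with a median of 0.789 beside 0.384 over all windows, and 34.2% of all windows reached the lowest of these. Tdrd1 also has a listed start farther into the gene, whose window held 3 CpG and no CACGTG.

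Read against the control library, 7 of the 9 listed genes were lower in the ID2 library and Sycp1 and Slc25a31 were higher. Over the 9 genes, the normalized values summed to 2357 for the control and 1511 for ID2, 0.641 of the control. Values are those deposited by the authors, which had been set to one common distribution for both libraries, so the sequencing depth behind them is unknown. Ratios are log2((ID2 + 1)/(control + 1)). In bulk RNA, fewer cells that express a gene and less RNA per cell cannot be told apart.

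Of the genes of the synaptonemal complex, Syce1 and Sycp3 were lower and Sycp1 was not. Syce1, a protein of the complex's central element, had 340 in the control library and 201 with ID2, a log2 ratio of -0.76. Sycp3, which forms the chromosome axis, stood at 296 and 179 (-0.72). Sycp1, the transverse filament that links the axes, stood at 180 and 193, a log2 ratio of 0.10. An exon of Chpt1 overlaps Sycp3 on the other strand, and a library that does not keep strand cannot separate the reads; Chpt1 went the other way, with 282 and 328 (0.22).

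The 3 listed members that act in or near the piRNA pathway, Mael, Stk31 and Tdrd1, were lower. Mael, which acts in nuage and in piRNA-guided silencing of transposons, had 579 in the control library and 312 with ID2. This was the largest difference in value among the 9 genes, with a log2 ratio of -0.89 (1.86-fold lower). Stk31, a Tudor-domain protein with a kinase-like domain, stood at 217 and 169 (-0.36). Tdrd1, a Tudor protein that binds PIWI proteins, stood at 75.6 and 50.2 (-0.58). Asz1, an ankyrin-repeat protein of nuage, cannot be given a level, and the lowest mean of any gene in the table is 14.0.

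Dazl, an RNA-binding protein that germ cells need to develop, had 477 in the control library and 293 with ID2, a log2 ratio of -0.70 (1.62-fold lower). The remaining genes are known mainly from the testis. Taf7l, a relative of the TFIID subunit TAF7 that spermatogenic cells use, stood at 165 and 82.4, the lowest ratio of the set (-0.99, 1.99-fold lower). Slc25a31, the ADP/ATP carrier of sperm mitochondria, had the smallest values, 26.9 and 32.2 (0.25).

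**Figure D2:**
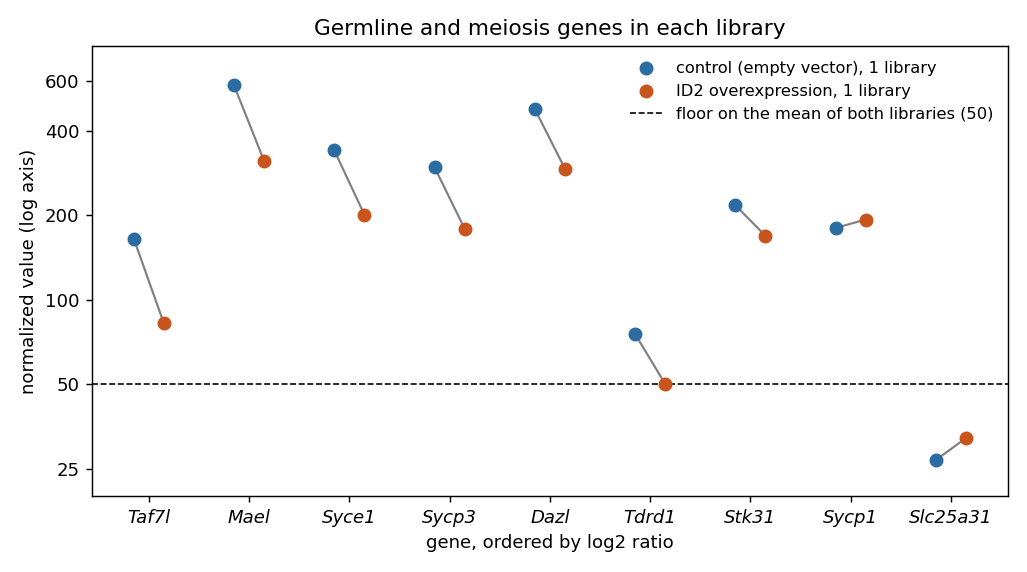
Normalized value (log axis) of each of the 9 listed genes in the control library (blue) and the ID2 library (orange), ordered by log2 ratio from Taf7l at -0.99 to Slc25a31 at 0.25; each point is 1 library. Lines slope down for 7 genes and up for Sycp1 and Slc25a31, the latter below the dashed floor at 50.

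For counts over many genes, a floor of 50 was set on the mean of both libraries, which 8 of the 10 genes passed and Slc25a31 did not. Of these 8, 7 were lower, where 51.5% of all 12679 genes above the floor were lower, and 1 was higher, where 47.2% were. At least 1.5-fold lower were 5 of 8 (Taf7l, Mael, Syce1, Sycp3 and Dazl), beside 6.59% of all genes. Tdrd1 missed this fold only through the pseudocount (0.664 of the control in the authors' deposited table). At least 1.5-fold higher were 0 of 8, beside 8.00%. None of the 8 was 2-fold lower or higher, beside 1.86% and 2.53%, with Taf7l just short of it; the fold in the authors' deposited table, which adds no pseudocount, puts Taf7l past 2-fold (0.499 of the control). Their median log2 ratio was -0.71 and that of all genes 0.00. Since the genes were picked with these ratios known, the counts describe them and give no support to their direction.

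How far apart genes of similar level lay between the libraries gives a scale for each ratio. For the 1746 genes at mean levels of 250 to 500, the log2 ratio ran from -0.68 at the 5th percentile to 0.79 at the 95th, and Mael, Syce1 and Dazl lay below that range. Among the 1850 genes from 100 to 250 the percentiles were -0.97 and 1.06, with Taf7l just below them and Sycp1, Sycp3 and Stk31 inside. Tdrd1 was inside the range of its class from 50 to 100 (-1.25 to 1.35), and Slc25a31 inside that of genes under 50 (-1.52 to 1.6). So 5 of the 9 ratios lay within the range of their level class and 4 below it. These ranges show the spread over genes and are no error of any single gene.

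**Figure D3:**
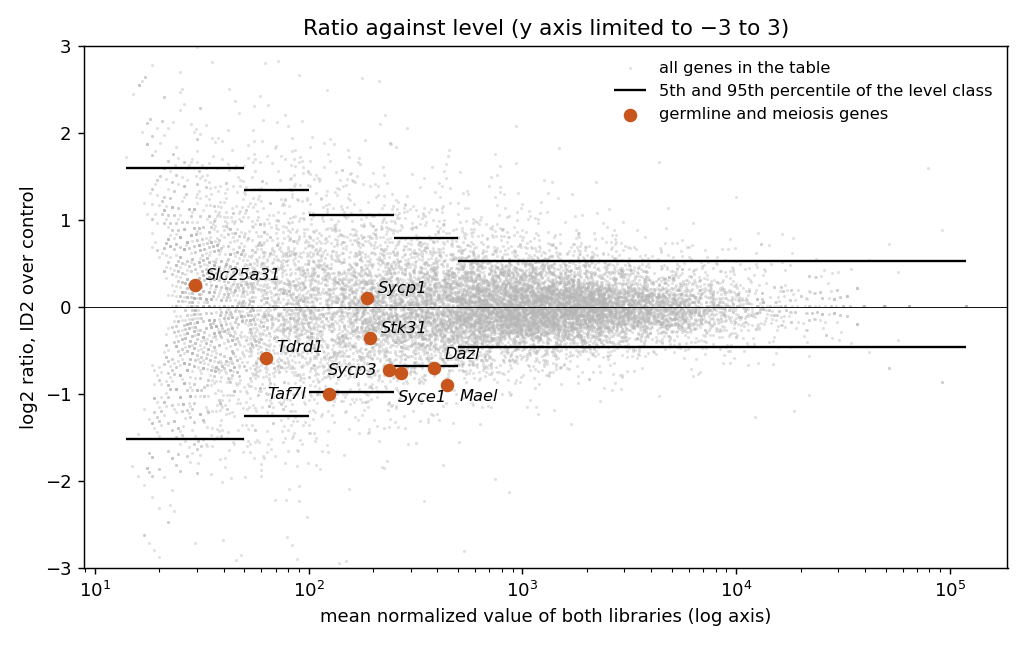
Log2 ratio of ID2 over control against the mean normalized value of both libraries (log axis) for all genes in the table (grey) and the 9 germline and meiosis genes (orange); black bars are the 5th and 95th percentiles in 5 level classes. Dazl, Syce1, Mael and Taf7l fall below the lower bar of their class, Dazl and Taf7l by a small margin.

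In the authors' deposited table, Mael alone of the 9 had a p-value under 0.05 (0.0476), a class that holds 3.85% of all genes there. The adjusted p was 1 for each of the 9 in the authors' deposited table. No replicates stand behind those p-values.

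Levels can be set side by side between genes only per transcript length, here the longest protein-coding transcript in GENCODE vM21, since the authors' annotation is not given in the sources used here. Per kilobase, Mael had the highest control value (343), followed by Sycp3 (253), Syce1 (233) and Dazl (160). Taf7l (85.5), Stk31 (67.0) and Sycp1 (52.4) came next, and Tdrd1 (14.6) and Slc25a31 (12.6) last. The first 4 kept this order in the ID2 library, at 184, 153, 138 and 98.6 per kilobase, while Taf7l (42.6) stood there below Sycp1 (56.1) and Stk31 (52.2). With 1 library per group it cannot be said which neighbours in these orders differ. The median over 11508 genes above the floor with a known length was 272 for the mean of both libraries. On that scale Mael (263) stood near the middle of all genes, with 49.2% below it, and Tdrd1 (12.1) near the bottom, with 1.23% below it.

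The broadly expressed relatives of Slc25a31 and Taf7l stood far above them per kilobase. The carriers Slc25a4 and Slc25a5, which serve mitochondria of somatic cells, had 2495 and 10048 per kilobase in the control library, beside 12.6 for Slc25a31, and Taf7 had 568 beside 85.5 for Taf7l. The values were 4803 and 3692 for Slc25a4 (log2 ratio -0.38) and 12459 and 11806 for Slc25a5 (-0.08). Taf7, the TFIID subunit, had 1875 in the control library and 2868 with ID2 (0.61), the opposite direction to Taf7l. Over 10 such relatives 5 were higher and 5 lower (median 0.06). Rad21, the cohesin subunit that meiotic cells replace in part with REC8, stood at 9830 and 16258 (0.73), and Stag1, another cohesin subunit, at 2211 and 2566 (0.21).

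Other genes of these pathways were taken from 5 lists that hold 84 further genes, of which 56 were in the table and 51 above the floor. Among the 51, 39 were lower and 12 higher; they had a median log2 ratio of -0.26; 13 were at least 1.5-fold lower and 0 at least 1.5-fold higher. Over all genes above the floor 51.5% were lower and 47.2% higher, with 6.59% at least 1.5-fold lower and 8.00% at least 1.5-fold higher. Smc1b was the 1 gene of the 51 at least 2-fold lower, beside 1.86% of all genes, and Tdrd5 missed it only through the pseudocount (0.496 of the control in the authors' deposited table). The 5 listed genes under the floor were lower: Fkbp6 (39.8 and 10), Tdrd9 (57.7 and 24.1), Dppa3 (47.8 and 20.1), Syce3 (39.8 and 20.1) and Gtsf1 (45.8 and 27.1). Only Fkbp6 (log2 ratio -1.88) lay outside the 5th to 95th percentile range of genes under 50, -1.52 to 1.6. The share of lower genes among all genes under the floor was not counted. Lists of this kind were also read in earlier work on the same libraries, so they are not independent of the choice of the 10 genes. Exons of other genes overlap Rec114 (Nptn), Tdrd5 (4930518J20Rik), D1Pas1 (Gm37912) and Psmc3ip (Mlx) on the opposite strand. Piwil4 (Gm10706), Tdrkh (Oaz3), Pnldc1 (AL589878.1) and Dnd1 (Wdr55) are overlapped likewise, so the reads of all these genes cannot be told apart either. The same holds for the silencers Atf7ip (Gm44140), L3mbtl2 (Chadl), Setdb1 (Cers2 and Gm37500), Suv39h1 (Gm14820), Suv39h2 (Dclre1c) and, on its own strand, Ehmt1 (Gm37139). It also holds for the fibroblast markers Fbn1 (Gm9913) and Pdgfra (Gm42802 and Mir7025).

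The synaptonemal complex and the meiotic chromosome axis had 11 of 12 genes lower and a median of -0.46, its 3 genes from the set of 10 included. Smc1b, the meiosis-specific cohesin subunit, had 338 in the control library and 155 with ID2 (-1.12). Stag3, another meiotic cohesin subunit, stood at 3502 and 1913 (-0.87), a level above that of each of the 9 listed genes per kilobase (832 in the control). The authors' deposited table gives Stag3 a p of 0.00307 and an adjusted p of 0.401. Among genes of meiotic entry and recombination, 10 of 15 were lower and 5 higher (median -0.20). Meioc, which sustains the meiotic program, stood at 1192 and 651 (-0.87). Stra8, the gene induced by retinoic acid at meiotic entry, stood at 1084 and 768 (-0.50). Rec114, needed for meiotic double-strand breaks, stood at 127 and 76.4 (-0.73), and Prdm9, which sets where those breaks fall, at 108 and 74.4 (-0.54).

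Of the piRNA and nuage genes, the members Mael, Stk31 and Tdrd1 included, 15 of 17 were lower and 2 higher (median -0.48). Tdrd5, a Tudor protein of nuage, stood at 113 and 56.3 (-1.0), Pld6, the mitochondrial nuclease of piRNA maturation, at 442 and 249 (-0.82), and Tdrd12 at 164 and 94.5 (-0.79). Genes of germ cell specification and identity, Dazl included, had 6 of 9 lower with a median of -0.09, near that of all genes. The 3 higher ones were Ifitm3 (0.17), Prdm1 (0.16) and Prdm14 (0.08). In that list Tfap2c, a transcription factor of germ cells and of trophoblast, stood at 3697 and 2150 (-0.78). The RNA helicase Ddx4 stood at 565 and 427 (-0.40), and Sohlh2, a helix-loop-helix factor of early germ cells, at 1029 and 888 (-0.21).

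Of 20 testis-restricted genes, 12 had no row in the table, among them the protamines Prm1 and Prm2 and the transition proteins Tnp1 and Tnp2, which package sperm DNA. Of the 7 above the floor, the member Taf7l included, 5 were lower, with a median of -0.25. Brdt, a bromodomain protein of spermatocytes, stood at 140 and 74.4 (-0.91), Hspa2 at 569 and 326 (-0.80), and D1Pas1 at 386 and 521 (0.43).

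**Figure D4:**
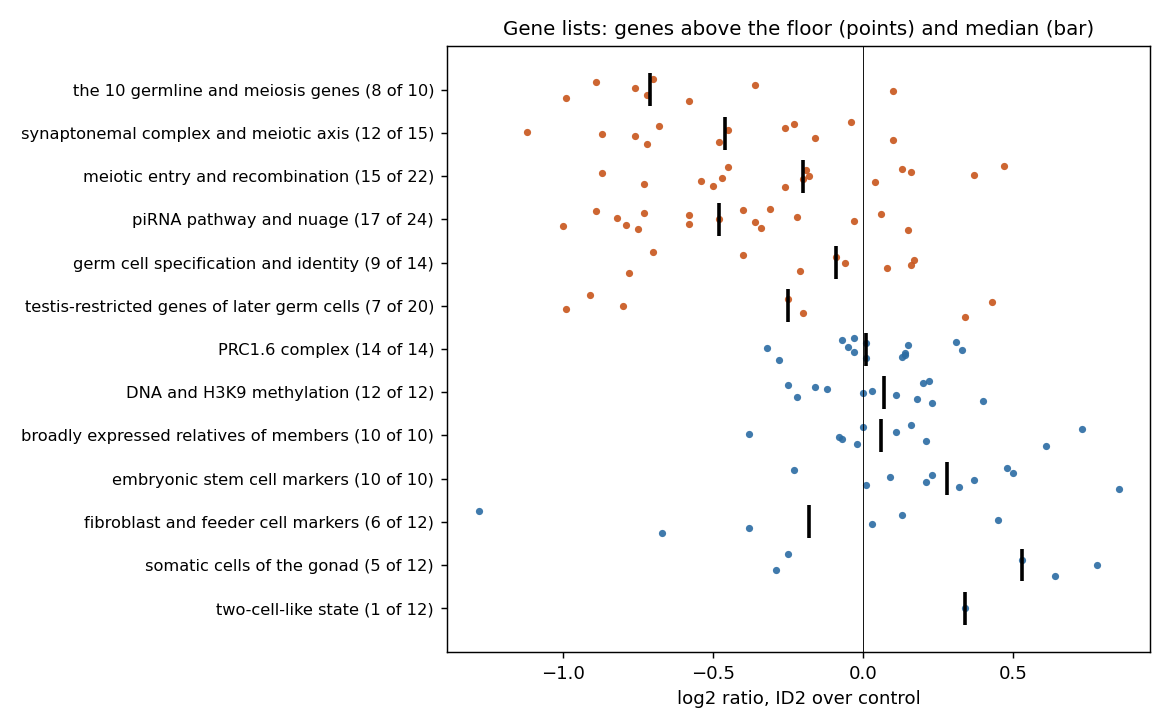
Log2 ratio of ID2 over control for the genes above the floor in each list (points; germline lists in orange, others in blue) with the list's median (black bar) and, in brackets, the genes above the floor of all genes in the list. Medians of the germline lists lie between -0.71 and -0.09, and those of the 14 genes of the variant Polycomb complex and the 12 of DNA and histone methylation at 0.01 and 0.07.

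Other germline genes were also read for the E-box that 7 of the 10 carry. RefSeq windows matched 68 of the 84 further germline genes, and 17 of the 68 held CACGTG (23.2% of their 82 windows). Of the 42 that were also above the floor, the 11 with CACGTG had a median log2 ratio of -0.68, with 10 of 11 lower. The 31 without it had a median of -0.22, with 22 of 31 lower. Among the 10 genes no such split appeared: the 6 above the floor with CACGTG had a median of -0.65 and the 2 without it, Dazl and Syce1, one of -0.73. The log2 ratios of the 11, named here after their values were seen, were -0.91 for Brdt, -0.87 for Stag3, -0.82 for Pld6, -0.73 for Mov10l1 and for Rec114, and -0.68 for Hormad1. Those nearer to 0 were -0.40 for Ddx4, -0.31 for Ddx25, -0.16 for Syce2, -0.04 for 4930447C04Rik and 0.06 for Piwil1. All of the 11 but Brdt and Rec114 are in the list of the synaptonemal complex and axis or that of piRNA and nuage. With the members they hold included, those lists had medians of -0.46 and -0.48. The lists of meiotic entry and recombination, germ cell specification and identity, and testis-restricted genes had medians from -0.25 to -0.09. The 11 and the 31 genes hold no members, so these list medians cover a different set of genes. The ratios of all genes were not sorted by CACGTG for comparison. Whether the ratios go with the E-box apart from the list was not tested.

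Genes of the known silencers stood within the range of ratios of their level class, all 26 of them, as most genes do by the definition of that range. All but Yaf2 and Suv39h2 had means of at least 500, and the 7843 genes of that class had log2 ratios from -0.46 at the 5th percentile to 0.53 at the 95th. Of the 14 genes of the variant Polycomb complex, 6 stood higher, 6 lower and 2 at the same number of steps; the median was 0.01 and the range from -0.32 to 0.33. Pcgf6, which defines the complex, had 860 in the control library and 1081 with ID2 (0.33), and Mga, its DNA-binding scaffold, at 8373 and 6690 (-0.32). Hdac1, a histone deacetylase, stood at 6998 and 8685 (0.31) and Yaf2 at 179 and 148 (-0.28). Of the 12 genes of DNA and H3 lysine 9 methylation, 7 were higher and 5 lower (median 0.07). Trim28, a corepressor that recruits the methyltransferase SETDB1, stood at 25906 and 34240 (0.40), and Uhrf1, which brings DNMT1 to newly copied DNA, at 13887 and 16273 (0.23). Dnmt3a, a de novo DNA methyltransferase, stood at 2398 and 2013 (-0.25), and Atf7ip, a partner of SETDB1, at 2533 and 2959 (0.22). None of these 26 genes was 1.5-fold apart, beside 6.59% of all genes above the floor at least 1.5-fold lower and 8.00% higher. At means of at least 500 both percentiles lie inside 1.5-fold, so few genes of that class are so far apart.

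Markers of other cells that a culture could hold were read in the same way. All 10 embryonic stem cell markers were listed, 8 higher, 1 lower and 1 equal, and their values summed to 120983 for the control and 146441 for ID2. Zfp42 stood at 0.85, Klf4 at 0.50, Esrrb at 0.48 and Sox2 at 0.37 on the log2 ratio. Of 12 fibroblast and feeder cell markers 8 were listed, with sums of 2548 and 1840. Of the 6 above the floor 3 were lower, Col1a1 (-1.28), Thy1 (-0.67) and Pdgfrb (-0.38), and 3 higher, Loxl1 (0.45), Fbn1 (0.13) and Pdgfra (0.03). The fibroblast markers Col3a1, Dcn, Lum and Postn have no row, and Col1a2 (39.8 and 7.03) and Tnc (28.9 and 7.03) were under the floor. Of 12 markers of somatic cells of the gonad 5 were listed, with sums of 1544 and 1511. Inha (0.78), Star (0.64) and Cyp11a1 (0.53) were higher, and Rhox5 (-0.29) and Clu (1072 and 898, -0.25) lower. The defining genes Sox9, Amh, Wt1, Foxl2 and Nr5a1 have no row. Among the 12 markers of two-cell-like cells Eif1a alone was above the floor (0.34). The 4 listed Zscan4 genes lay between 20.9 and 50.2 in either library, and all were higher with ID2 (0.48 to 0.84). The part of these shifts in the germline ratios was not tested.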

How the data were processed

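Libraries of 2 cultures were prepared with the TruSeq RNA LT kit v2, per the labels' protocols; that kit keeps no strand. STAR, DESeq and the mouse build mm9 stand in the submitters' processing notes, without versions, annotation or counter. The authors deposited 1 normalized signal value per gene and library, their fold (the ratio of ID2 to control), the log2 of that fold, and p-values before and after adjustment. The values were whole numbers of a step (0.995 in the control, 1.00 in the ID2 library), and the sorted whole numbers were identical in both libraries with 0 ranks that differed. They are therefore not read counts, depth is unknown, and no counting interval was computed.

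Log2 ratios were computed with a pseudocount of 1, and counts over genes used a floor of 50 on the mean. Direction was taken on the whole numbers of steps, since the steps alone shift equal numbers by 0.0140 on the log2 scale. No test was run, because each group has 1 library. The members, the lists and the rules were chosen with earlier results of these data known. Named genes are the 10 members, Id2, in each list the 4 genes above the floor whose ratios were farthest from 0, listed genes under the floor where few, and the relatives of Slc25a31 and Taf7l; others are identified where they appear. No gene was named for likeness of pattern, since 2 libraries give each gene 1 ratio. Promoter windows of 300 bases came from RefSeq, matched by symbol or by a synonym that names 1 gene. Ratios and motif searches were checked on simulated data. Python 3.11.15, numpy 2.4.6 and pandas 2.3.3 were used.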

Additional observations from a re-analysis of the deposited data

How the results depend on the processing

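Of 249 recomputed values 221 stayed within the tolerance (0.1 on the log2 scale, or 1.5 times a count), 27 moved and 1 reversed; directions on deposited values and ratios of whole steps were added after seeing the data. All 45 recomputed log2 ratios of the 9 listed genes stayed within 0.1 under pseudocounts of 0.1 and 10, a median ratio set to 1, the authors' log2 column and whole steps, most of which could hardly move them. Of the members, 1 (Taf7l) was at least 2-fold lower with a pseudocount of 0.1, in the authors' log2 column and on whole steps, and 5 were at least 1.5-fold lower. Without a floor 2 members were higher, and with a floor of 250 3 were lower and 0 higher. Of the genes in the 6 germline lists above the floor (the members included) 46 were lower, 13 higher and 1 at least 2-fold lower; with a floor of 250 these were 24, 7 and 0. The count at least 2-fold lower was 3 with a pseudocount of 0.1, in the authors' log2 column and on whole steps, 4 without a floor, 18 at 1.5-fold and 0 at 4-fold. The counts over all genes past 2-fold were 551 (higher) and 470 (lower) without a floor, 105 and 53 with a floor of 250, 1014 and 835 at 1.5-fold and 23 and 18 at 4-fold. The median of gonadal somatic markers, 0.53, was -0.25 with a floor of 250, which leaves Clu alone. No paired analysis was possible because each group has 1 library, and no replicate could be left out.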
